A study of Homo sapiens with 4 samples.

Results

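The genes described here are 8 whose products share complexes with RBBP4 or add the acetyl groups that its deacetylase complexes remove: the Polycomb genes EZH2, SUZ12 and EED, the chromatin assembly gene CHAF1A, and the acetyltransferase genes EP300, CREBBP, KAT2A and KAT2B. They were chosen by name, and the H3K9ac regions counted for each were those called within 5 kb of the position given for its start on the human genome build hg19. This took in 24 of 39303 regions in cells with an shRNA against RBBP4 (shRBBP4) and 25 of 26828 regions in cells with a control shRNA (shNT). All cells were T98G, an established human glioblastoma line, at passage 4, carrying a lentiviral shRNA construct. H3K9ac, acetylation of histone H3 at lysine 9, was mapped by chromatin immunoprecipitation and sequencing with 1 library for each shRNA. The input libraries were not analysed here, and the level of RBBP4 after the knockdown was not measured in the data used.

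RBBP4 is a histone-binding protein that is a subunit of several chromatin complexes. In Polycomb repressive complex 2 (PRC2) it sits with EZH2, the methyltransferase for lysine 27 of histone H3, and with SUZ12 and EED, which the enzyme needs for activity. In chromatin assembly factor 1 (CAF-1), which places new histones on replicating DNA, it is a partner of CHAF1A, the largest subunit. It is also part of histone deacetylase complexes, which remove the acetyl groups that enzymes such as p300 (EP300), CBP (CREBBP), GCN5 (KAT2A) and PCAF (KAT2B) add. GCN5 and PCAF are the enzymes best known for acetylating lysine 9 of histone H3, and H3K9ac marks the starts of active genes. The comparison asks whether H3K9ac at the genes for these partners and counterparts was mapped differently after RBBP4 knockdown.

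The promoters of 5 of the genes are shown as examples of different patterns of calls. EED had its start inside a strong region in both libraries. EZH2 had regions just before its start in both libraries, and both were strong in shNT. EP300 had a region over its start in shRBBP4 alone, KAT2B had a region in shNT alone, and KAT2A had none in either. The sequences are RefSeq's, on GRCh38.p14, and run 5′ to 3′ from 250 bases before the start to 50 bases from it. That start need not be the same base as the hg19 start used for the regions. Capitals mark exact matches, on either strand, to the short motifs listed with the promoter results.
EZH2 promoter, GRCh38.p14 chr7:148884242-148884541, minus strand: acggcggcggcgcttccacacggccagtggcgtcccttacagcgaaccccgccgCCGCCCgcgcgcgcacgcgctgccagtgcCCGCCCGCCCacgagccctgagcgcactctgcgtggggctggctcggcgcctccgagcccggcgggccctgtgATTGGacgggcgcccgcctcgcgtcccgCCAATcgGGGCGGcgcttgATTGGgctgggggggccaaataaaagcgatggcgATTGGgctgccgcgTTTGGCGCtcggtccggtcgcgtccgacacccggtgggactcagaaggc
EED promoter, GRCh38.p14 chr11:86244503-86244802, plus strand: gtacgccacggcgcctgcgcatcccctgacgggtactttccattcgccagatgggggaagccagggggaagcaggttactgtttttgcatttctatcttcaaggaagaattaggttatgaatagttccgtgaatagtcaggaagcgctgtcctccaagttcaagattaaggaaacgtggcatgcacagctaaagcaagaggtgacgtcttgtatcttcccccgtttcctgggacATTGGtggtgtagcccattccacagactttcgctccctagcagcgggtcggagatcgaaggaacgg
EP300 promoter, GRCh38.p14 chr22:41092342-41092641, plus strand: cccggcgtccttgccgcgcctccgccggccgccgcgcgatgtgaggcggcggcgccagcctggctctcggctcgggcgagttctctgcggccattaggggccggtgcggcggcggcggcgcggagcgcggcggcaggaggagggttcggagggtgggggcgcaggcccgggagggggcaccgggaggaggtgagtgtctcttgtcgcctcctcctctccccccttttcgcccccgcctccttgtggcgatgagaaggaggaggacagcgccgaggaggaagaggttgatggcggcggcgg
KAT2A promoter, GRCh38.p14 chr17:42121318-42121617, minus strand: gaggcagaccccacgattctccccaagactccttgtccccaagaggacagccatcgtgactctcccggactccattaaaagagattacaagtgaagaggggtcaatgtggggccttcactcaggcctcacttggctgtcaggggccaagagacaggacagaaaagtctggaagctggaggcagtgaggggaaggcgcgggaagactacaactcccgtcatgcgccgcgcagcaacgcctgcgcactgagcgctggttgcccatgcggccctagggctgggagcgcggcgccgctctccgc
KAT2B promoter, GRCh38.p14 chr3:20040196-20040495, plus strand: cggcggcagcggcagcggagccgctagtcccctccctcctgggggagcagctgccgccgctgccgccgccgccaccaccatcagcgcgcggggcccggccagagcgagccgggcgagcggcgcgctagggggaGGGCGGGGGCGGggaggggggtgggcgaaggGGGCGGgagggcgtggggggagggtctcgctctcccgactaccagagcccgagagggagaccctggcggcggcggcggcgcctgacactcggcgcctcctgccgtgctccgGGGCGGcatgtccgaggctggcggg

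H3K9ac regions were called near 6 of the 8 starts in shRBBP4 and near 7 of 8 in shNT. Of 10-kb tiles of the genome, taken without regard to gene starts, 5.43% held a region in shRBBP4 and 3.99% in shNT. The share of all gene starts with a region was not computed, so the tile shares are no background for promoters. The same 6 genes, EZH2, SUZ12, EED, CHAF1A, EP300 and CREBBP, were called in both libraries, against 3.63% of tiles. KAT2B was called in shNT only, as were 0.360% of tiles, and KAT2A in neither. All regions within 5 kb lay within 3.3 kb of a start, the farthest being one at CHAF1A that began 3276 bp upstream in shRBBP4. Just outside the limit were the regions nearest to KAT2A, whose nearer edge lay 8234 bp downstream of its start in shRBBP4 and 8368 bp downstream in shNT. Each group is a single library of unknown depth, so no difference between them has a replicate check and no p-value was computed.

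**Figure D1:**
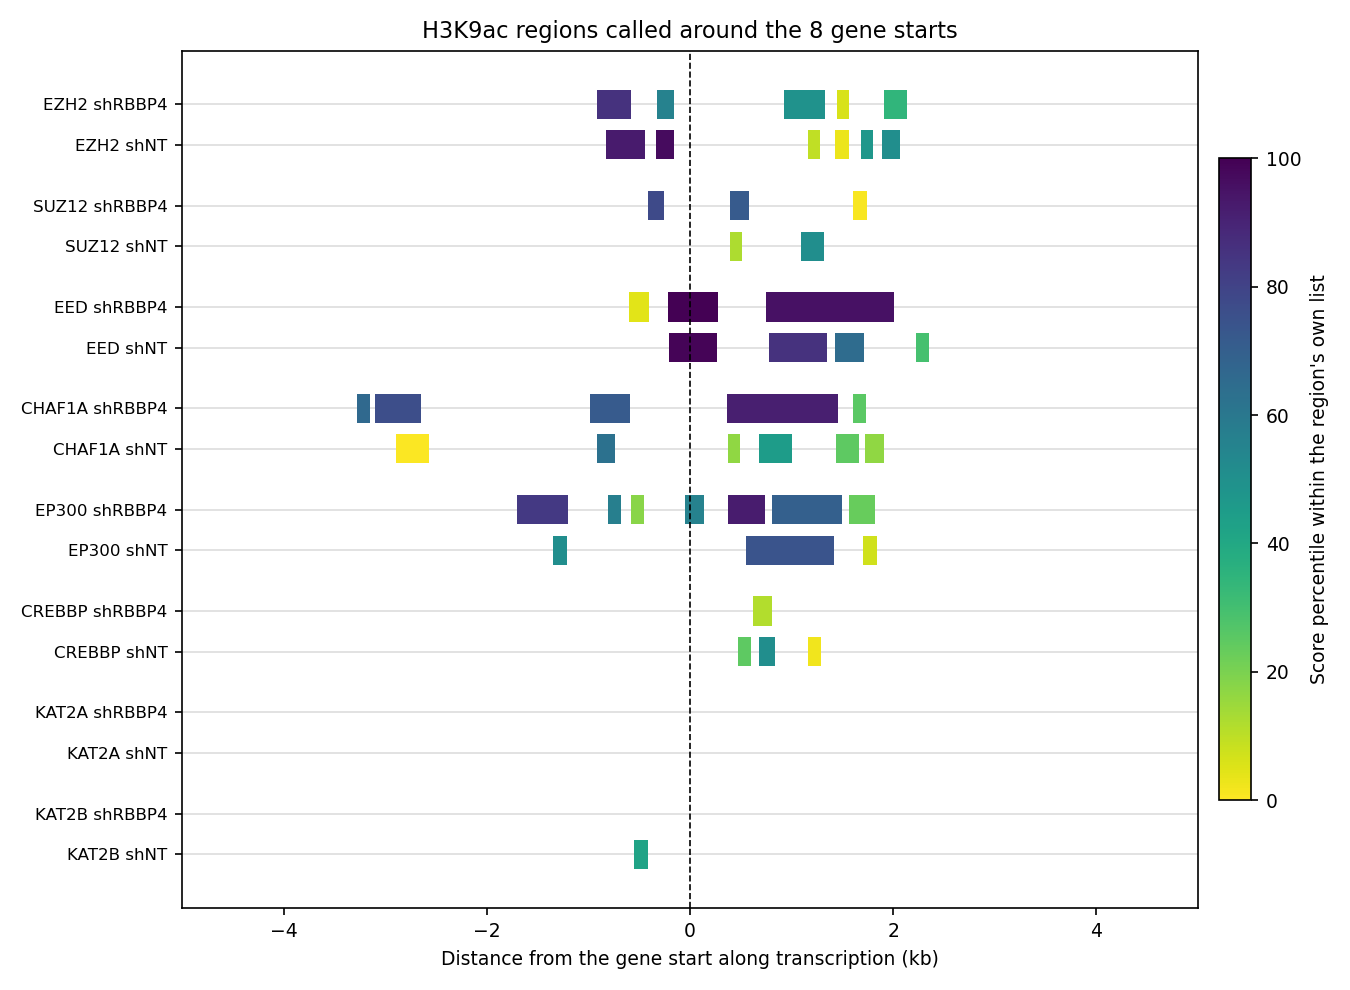
Called H3K9ac regions within 5 kb of each gene start, with distance along the direction of transcription in kb on the x axis and 1 row per gene and library, shRBBP4 above shNT. Bar length is region width and colour is the score percentile in the region's own list. EED is the only gene with a region over its start in both libraries, and the rows of KAT2A are empty.

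Regions near the starts were about as many in both libraries but covered more sequence in shRBBP4. The 24 shRBBP4 regions covered 8342 bp and the 25 shNT regions covered 5983 bp, a ratio of 1.39, against 1.51 for the whole lists. The ratio of region numbers was 0.960 (exact 95% interval 0.525 to 1.75, counting error only), and that of the whole lists, 1.46 (1.44 to 1.49), lay inside this interval. Widths ran up to 1260 bp in shRBBP4 and 865 bp in shNT. The median width was 212 bp in shRBBP4 and 170 bp in shNT, beside 213 bp in the whole shRBBP4 list and 210 bp in the whole shNT list. Of the shNT regions, 6 had the smallest width in that list, 123 bp, which 12.4% of all shNT regions shared. The smallest width in the shRBBP4 list was 116 bp, and the narrowest region near these genes there was 122 bp wide.

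**Figure D2:**
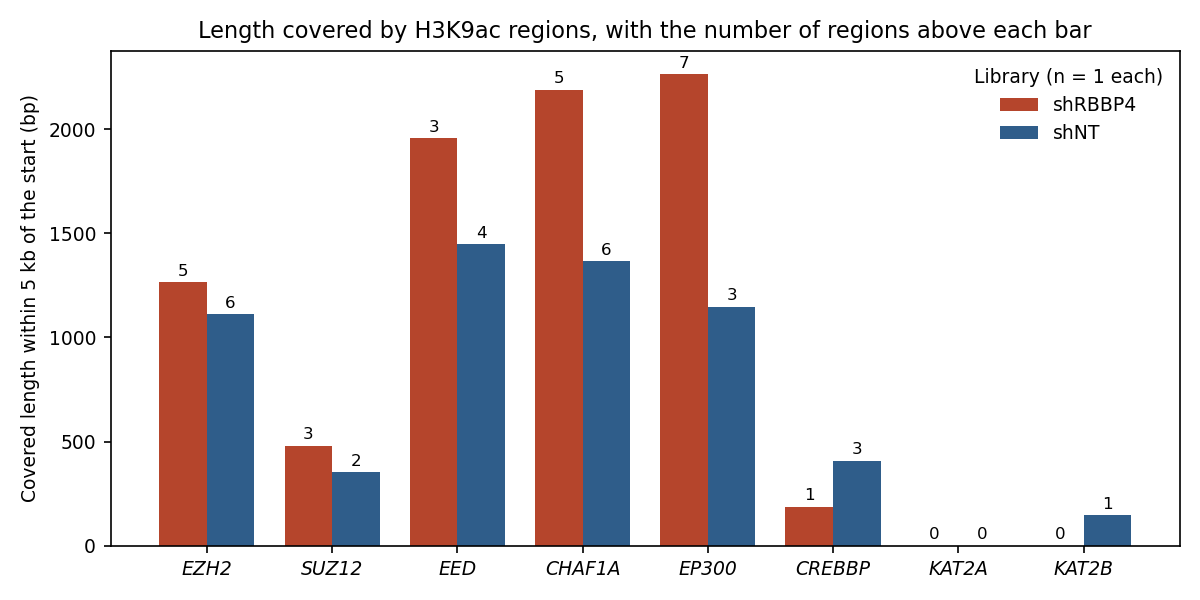
Length in bp covered by called regions within 5 kb of each start, in shRBBP4 (left bar) and shNT (right bar), with the number of regions above each bar (1 library each). EP300 has the tallest shRBBP4 bar at 2264 bp and EED the tallest shNT bar at 1449 bp.

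More length was covered in shRBBP4 at 5 of the 8 genes and in shNT at 2, CREBBP and KAT2B. To set this against the genome, the regions of both lists were joined into clusters across gaps of up to 1 kb, and 10454 clusters held regions of both libraries. Of those clusters, 71.9% had more covered length in shRBBP4, which was also so of 4 of the 6 clusters nearest to these starts. Covered length was at least 1.5 times higher in shRBBP4 in 41.5% of all such clusters and in 2 of the 6 here, at CHAF1A and EP300. It was at least 1.5 times higher in shNT in 9.15% of all and in 1 of the 6, at CREBBP. The median ratio was 1.36 over the 6 gene clusters and 1.33 over all clusters. As a group the genes thus stood near the background, and CREBBP lay at its low end.

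**Figure D3:**
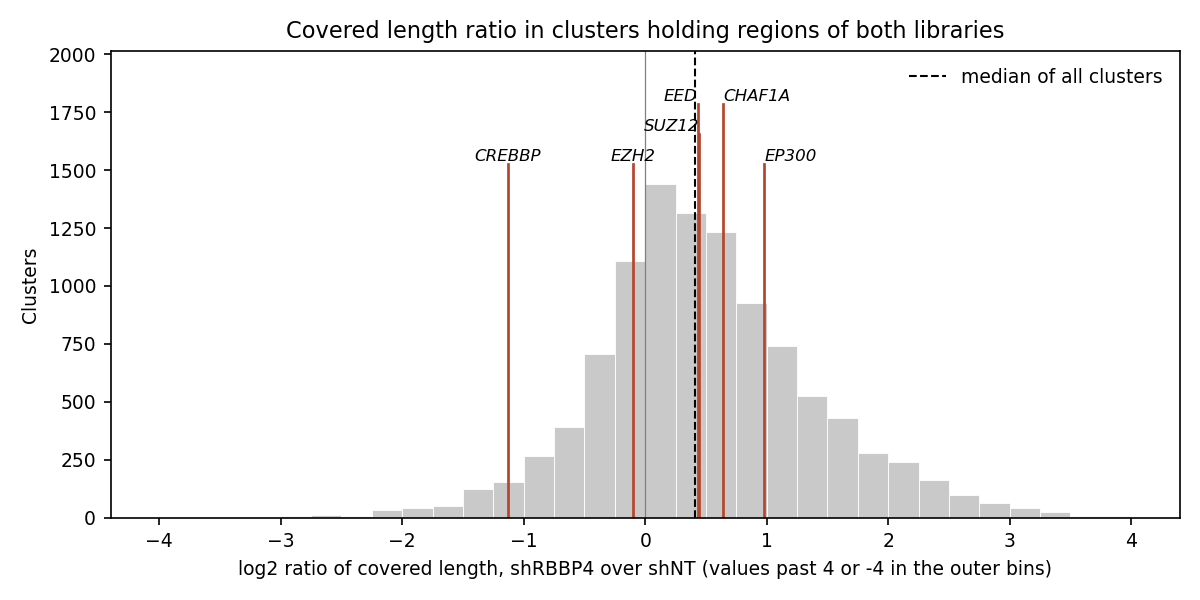
Histogram of the log2 ratio of covered length, shRBBP4 over shNT, over 10454 clusters that hold regions of both libraries. Red lines mark the clusters of the 6 genes called in both, and the dashed line is the median of all clusters at 0.41; CREBBP lies farthest to the left at a ratio of 0.457 and EP300 farthest to the right at 1.97.

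EZH2, the catalytic subunit of PRC2, had H3K9ac regions on both sides of its start and none called over it. Upstream, the region nearest to the start ran from 148581597 to 148581770 on chromosome 7 in shRBBP4 and from 148581601 to 148581772 in shNT, so its edges agreed within a few bases. Its score percentile, its rank by score within its own list in percent, was 55.8 among shRBBP4 regions and 97.1 among shNT regions, where it was the highest of the EZH2 regions. The next region upstream was the highest in shRBBP4, at percentile 85.9 and 342 bp wide, while its shNT counterpart was at percentile 92.9 and 380 bp wide. These percentiles rank regions within their own list, and because the lists differ in length they do not measure a change.

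Downstream of the EZH2 start lay weaker regions, 3 in shRBBP4 and 4 in shNT. Their percentiles were between 5.90 and 48.9 in shRBBP4 and between 2.97 and 51.2 in shNT. The uncovered stretch that held the start spanned 1082 bp in shRBBP4 and 1317 bp in shNT. In all, 1265 bp were covered in shRBBP4 and 1112 bp in shNT, a ratio of 1.14, beside 1.01 for all regions of chromosome 7. The 2 upstream regions alone, which form the cluster nearest to the start, covered 516 bp in shRBBP4 and 552 bp in shNT, a ratio of 0.935. RefSeq places another gene, LOC124901767, within 5 kb of the EZH2 start, so the regions near this start cannot be assigned to EZH2 alone.

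SUZ12, the PRC2 subunit that holds the complex together, had few and narrow regions, and they overlapped between the libraries at 1 place only. In shRBBP4, regions of 151 bp upstream and 189 bp downstream flanked the start on chromosome 17, at percentiles 77.4 and 71.8, and another of 140 bp lay farther downstream at percentile 0.860. In shNT there was no region upstream within 5 kb. The first shNT region downstream was 123 bp wide at percentile 12.2, and the second was 230 bp wide at percentile 51.2. Only the first downstream region was found in both, with 61.9% of its shRBBP4 length covered in shNT. The regions covered 480 bp in shRBBP4 and 353 bp in shNT, and 117 bp of this was common to both. That was 24.4% of the shRBBP4 length and 33.1% of the shNT length, against 53.0% in shRBBP4 and 73.9% in shNT over all 8 genes.

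EED, the PRC2 subunit that binds methylated lysine 27 of histone H3, had the highest-ranked region of the 8 genes in both libraries. This region lay over the start itself, on chromosome 11 from 85955586 to 85956080 in shRBBP4 and from 85955596 to 85956073 in shNT. It was 495 bp wide in shRBBP4 and 478 bp wide in shNT, and stood at percentile 99.9 among shRBBP4 regions and 98.9 among shNT regions. The promoter printed above for EED falls mostly within the distance this region spans, from 220 bp before to 274 bp after the start in shRBBP4 and from 210 bp before to 267 bp after it in shNT. The second EED region lay downstream. In shRBBP4 it was 1260 bp wide, the widest at any of these genes, at percentile 95.4. In shNT the same stretch held 2 regions of 567 and 281 bp, both wholly inside the shRBBP4 region, at percentiles 85.8 and 64.9.

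Weak regions called in 1 library only made up the rest of the EED profile. A region of 201 bp upstream, at percentile 4.40, was in shRBBP4 alone, and one of 123 bp downstream, at percentile 29.4, was in shNT alone. In total 1956 bp were covered in shRBBP4 and 1449 bp in shNT, a ratio of 1.35, beside 1.41 for chromosome 11. Of the shNT length, 91.5% was also covered in shRBBP4. Among all clusters of both libraries, that of EED stood at percentile 91.3 for covered length in shRBBP4 and 88.7 in shNT.

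CHAF1A, the largest subunit of CAF-1, had regions on both sides of its start, with a wide region downstream in shRBBP4. Downstream there were 2 regions in shRBBP4 and 4 in shNT. The first in shRBBP4 was 1098 bp wide, on chromosome 19 from 4403023 to 4404120, at percentile 91.5. In shNT this stretch held parts of 3 regions of 123, 324 and 234 bp, at percentiles 16.7, 45.0 and 24.8. Beyond it lay a region of 130 bp in shRBBP4, at percentile 25.7, and one of 186 bp in shNT, at percentile 16.7. On the upstream side a region of 393 bp in shRBBP4, at percentile 71.8, contained an shNT region of 171 bp at percentile 62.8. The uncovered stretch over the start was 953 bp in shRBBP4 and 1110 bp in shNT.

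A separate group of CHAF1A regions lay about 3 kb upstream. RefSeq places the gene SH3GL1 within 5 kb of the CHAF1A start, so that this group cannot be assigned to CHAF1A. The group held regions of 122 and 447 bp in shRBBP4, at percentiles 66.3 and 76.5, and 1 of 329 bp in shNT at percentile 0.526. With this group, 2190 bp were covered in shRBBP4 and 1367 bp in shNT, a ratio of 1.60, beside 1.80 for chromosome 19. Without it, in the cluster around the start, the lengths were 1621 bp in shRBBP4 and 1038 bp in shNT, a ratio of 1.56 at percentile 61.4 of all clusters.

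EP300, which encodes the acetyltransferase p300, had the most regions and the most covered length of the 8 genes in shRBBP4. It had 7 regions covering 2264 bp in shRBBP4 and 3 regions covering 1148 bp in shNT. The ratio of covered length, 1.97, was the highest among the 6 genes called in both libraries and stood at percentile 74.2 of all clusters, so ratios as high were found elsewhere in the genome. For chromosome 22 as a whole it was 1.69. Of the shNT length, 92.7% was also covered in shRBBP4. RefSeq places another gene, MIR1281, within 5 kb of the EP300 start, and the regions were not divided between these genes.

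The EP300 length called in shRBBP4 beyond that in shNT lay on both sides of the start, more of it upstream. In shRBBP4, 186 bp from 41488567 to 41488752 on chromosome 22 formed a region that covered the start, at percentile 56.0, and no shNT region overlapped it. Regions of 132 and 130 bp just upstream, at percentiles 57.1 and 17.7, were also in shRBBP4 alone. Farther upstream a region of 506 bp at percentile 83.2 in shRBBP4 contained an shNT region of 147 bp at percentile 51.2. Downstream, regions of 362 and 688 bp in shRBBP4, at percentiles 92.3 and 69.7, faced a single shNT region of 865 bp, the widest of that library near any of these genes, at percentile 74.2. The last region downstream was 260 bp wide in shRBBP4, at percentile 23.1, and 136 bp wide in shNT, at percentile 7.38. Upstream of the start, 815 bp were covered in shRBBP4 and 147 bp in shNT, while downstream 1449 bp were covered in shRBBP4 and 1001 bp in shNT.

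CREBBP, which encodes CBP, the close relative of p300, had a small H3K9ac cluster downstream of its start and no region upstream within 5 kb in either library. The nearest upstream region lay 80318 bp away in shRBBP4 and 80186 bp away in shNT. CREBBP had 1 region in shRBBP4, on chromosome 16 from 3929318 to 3929504, 187 bp wide and at percentile 11.5. It had 3 regions in shNT, of 123, 163 and 123 bp, at percentiles 24.8, 51.2 and 2.12 in order from the start. The middle one overlapped the shRBBP4 region. Covered length was 187 bp in shRBBP4 and 409 bp in shNT, a ratio of 0.457 that stood at percentile 3.39 of all clusters. All regions of chromosome 16 gave a ratio of 1.16. The shRBBP4 region was among the weak ones that are lost when the longer list is limited to its 26828 highest-scoring regions, and CREBBP then had no region in shRBBP4 while the 409 bp in shNT stayed. The 2 shNT regions without a counterpart were each at the smallest width of that list.

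KAT2A and KAT2B, which encode the related enzymes GCN5 and PCAF, had almost no H3K9ac calls. KAT2A on chromosome 17, with the genes HSPB9 and RAB5C also within 5 kb of its start in RefSeq, had none there in either library. Of 10-kb tiles, taken without regard to gene starts, 94.2% had none, and the share of gene starts without a region was not computed. The regions nearest to KAT2A lay downstream, by more than 8 kb. KAT2B had a single region in shNT, on chromosome 3 from 20080971 to 20081115, upstream of the start. It was 145 bp wide at percentile 42.0, and it was absent from the higher-scoring 50% of the shNT list. In shRBBP4 the region nearest to KAT2B lay 92001 bp away. Clusters with shNT regions only made up 7.26% of all 18106 clusters. A missing call says that no region passed the authors' threshold, which is not given in the sources used here, and does not show that the mark was absent.

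Ranked by the score of its best region, EED came first in both libraries, while the order of the other genes differed. In shRBBP4 the next were EP300 at percentile 92.3, CHAF1A at 91.5, EZH2 at 85.9, SUZ12 at 77.4 and CREBBP at 11.5. In shNT the next were EZH2 at 97.1, EP300 at 74.2, CHAF1A at 62.8, SUZ12 and CREBBP both at 51.2 and KAT2B at 42.0. EZH2 was thus placed higher in shNT than in shRBBP4. Of the 24 shRBBP4 and 25 shNT regions near the starts, 4 in shRBBP4 and 3 in shNT stood above percentile 90. Under percentile 25 stood 6 in shRBBP4 and 10 in shNT. By construction, about 10% of each whole list stands above percentile 90 and about 25% under percentile 25. No spread between replicates exists against which to judge neighbouring places in either order. A gene with more regions also has more chances of a high best score. EP300 had 7 regions in shRBBP4 and 3 in shNT, and CREBBP had 1 in shRBBP4 and 3 in shNT. The percentile of 51.2 in shNT belongs to a tied score, 7.476, which was the median of that list.

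**Figure D4:**
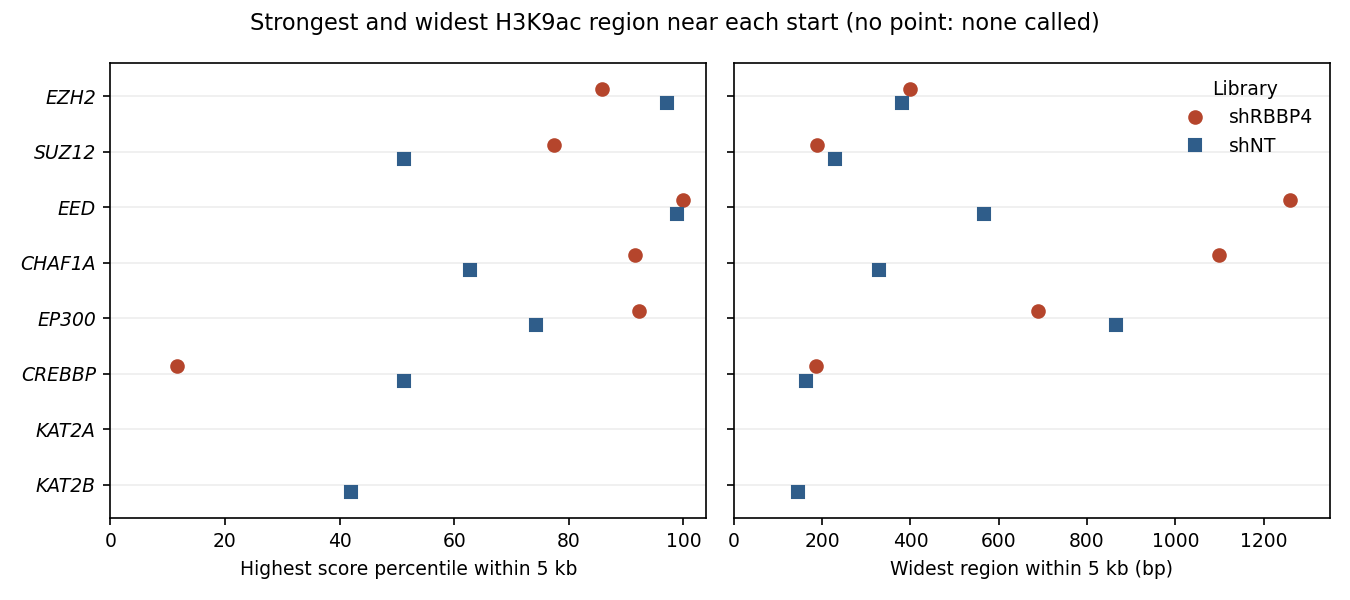
Highest score percentile (left, percent of the region's own list) and width of the widest region in bp (right) within 5 kb of each start, with circles for shRBBP4 and squares for shNT. EED has the highest percentile in both libraries, and in width EED and CHAF1A show the largest gaps between the libraries, with 1260 bp in shRBBP4 and 567 bp in shNT at EED and 1098 bp in shRBBP4 and 329 bp in shNT at CHAF1A.

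Most regions near the starts had a counterpart in the other library, taken as an overlap of 1 bp or more. In shRBBP4 17 of 24 did (70.8%, exact Clopper-Pearson 95% interval 48.9 to 87.4), against 50.04% of the whole list. In shNT 19 of 25 did (76.0%, 54.9 to 90.6), against 77.0% of the whole list. The share of the whole list lay inside the interval in both libraries, and the intervals treat neighbouring regions of a gene as independent, which they are not. By length, the regions common to both libraries amounted to 4421 bp.

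Around the starts, the covered length lay mainly downstream, inside the genes. Downstream sequence held 65.7% of the covered length in shRBBP4 and 74.0% in shNT. All 6 genes called in both libraries had more covered length downstream than upstream in each of them. The start lay inside a region in 2 genes in shRBBP4, EED and EP300, and in 1 gene in shNT, EED. The start lay between flanking regions within 5 kb at 3 genes in each library: EZH2, SUZ12 and CHAF1A in shRBBP4, and EZH2, CHAF1A and EP300 in shNT. The same shares and counts were not computed over all gene starts, so none of this is shown to be particular to these genes.

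**Figure D5:**
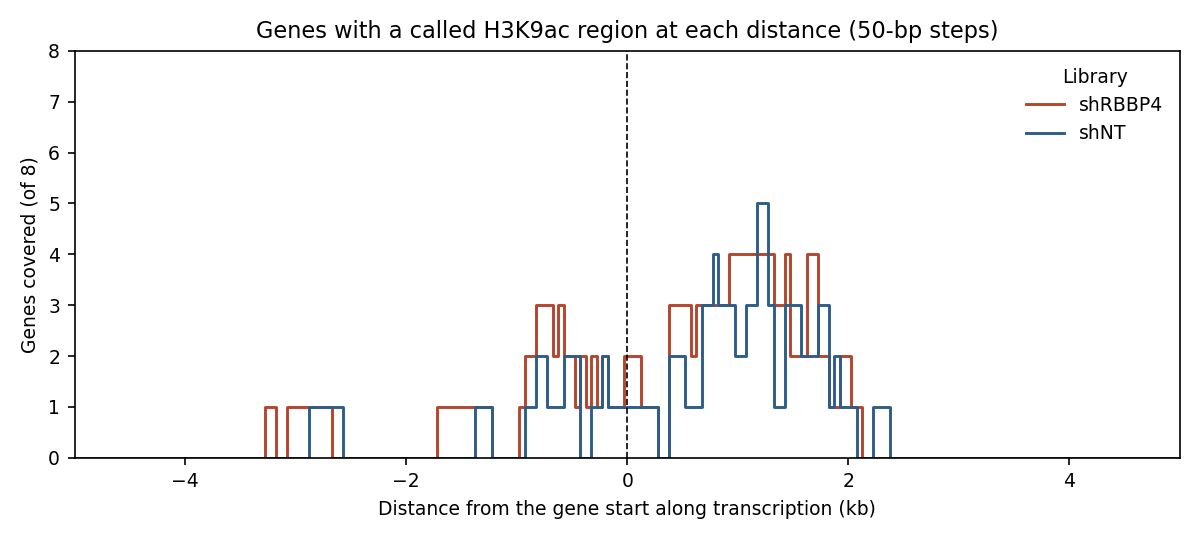
Number of the 8 genes with a called region at each distance from the start, along the direction of transcription in kb, in steps of 50 bp, for shRBBP4 and shNT. At the start 2 genes are covered in shRBBP4 and 1 in shNT, and the highest numbers, 4 in shRBBP4 and 5 in shNT, are reached about 1 kb or more downstream.

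The promoter sequences of all 8 genes were found in the RefSeq table, which holds 35116 promoters. Base composition did not follow the H3K9ac calls gene by gene. The EED promoter, under the highest-ranked region, had the lowest GC content of the 8, at 52.3%, below the median of 58.7% over all promoters. The KAT2B promoter, with 1 weak region in shNT alone, had the highest, at 80.3%. EZH2 had 74.7% GC and a CpG content of 1.10 times that expected from its base composition, higher than in 97.5% of all promoters. KAT2A, with no region, had the lowest value of the 8 for CpG, at 0.625, near the median of 0.579 for all promoters. KAT2A had 62.0% GC, and SUZ12, CHAF1A, EP300 and CREBBP had 70.3% to 75.3%.

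Exact matches to 8 short motifs were searched for on both strands, and some matches overlap. CCAAT, the box bound by NF-Y, was found in EZH2, SUZ12, EED and CHAF1A and in 34.6% of all promoters. It occurred 4 times in EZH2, 4 times in CHAF1A, and once each in SUZ12 and EED. None of the acetyltransferase genes held it. With 4 of 8 promoters not far from the share of all promoters, no difference between the gene groups is drawn from this. GGGCGG, bound by the SP and KLF family, was found in 5 of the 8 genes and in 45.0% of all promoters. TTTGGCGC, a form of the E2F site, was found in EZH2 alone, at the start, and in 0.652% of all promoters. The other E2F form searched, TTTCGCGC, was in none of the 8 and in 0.515% of all. AAGATGGCG, a form of the YY1 site, was in CREBBP and in 1.75% of all. No match was found for CCGGAAG of the ETS family (10.3% of all), GCATGCGC of NRF1 (3.05%) or the TATA box TATAAA (11.5%). A match is a run of letters and does not show that the factor binds.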

How the data were processed

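H3K9ac and input libraries were made from T98G cells with an shRNA against RBBP4 or a control shRNA, 1 of each per shRNA. The deposited region lists of the 2 H3K9ac libraries were used. Regions were called per library. The track lines read macs2 and PE, per the file headers, while the submitters' processing notes name bcl2fastq 2.15.0, BWA, Picard, SICER and the builds GRCh37 and hg19 without roles. The caller behind the lists, its threshold, its use of the input and the depth of the libraries are not given in any source used here.

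The deposited score of each region is the authors' own value, of unstated scale. It was used only as a percentile within its list. A region counted for a gene when it overlapped the 5 kb on either side of the gene's hg19 start, and lengths were clipped to that window. Clusters are regions of both lists joined across gaps of up to 1 kb. Strand, neighbouring genes and promoter sequences came from RefSeq tables on GRCh38.p14. No hg19 annotation was at hand, so other genes of these complexes were not placed. All 8 genes are named whatever their values. The genes and tests were chosen with earlier results of these data known. Intervals are exact, at 95%, and cover counting error only. Overlap and length functions were tested on simulated data. Alternatives were other distances, score limits, lists of equal length, joined regions, overlap rules and rank by width. Software was Python 3.11.15 with scipy 1.17.1, pandas 2.3.3, numpy 2.4.6 and matplotlib 3.10.9.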

Additional observations from a re-analysis of the deposited data

How the results depend on the processing

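No paired analysis was possible because there was 1 library for each shRNA. Unknown depth and threshold limit every comparison of calls. The counts of genes called near the start (6 in shRBBP4, 7 in shNT, 6 in both) stayed within 1 gene under each distance, score limit and list length tried. Within 1 kb of the starts there were 16 shRBBP4 regions and 12 shNT regions, a ratio of 1.33. They covered 4102 bp in shRBBP4 and 2872 bp in shNT. Keeping only the higher-scoring 50%, which holds fewer regions by construction, left 15 regions in shRBBP4 and 10 in shNT. These covered 6545 bp in shRBBP4 and 3454 bp in shNT, and 1 gene had at least 1.5 times more length in shNT. Joining across 1 kb left 9 regions in shRBBP4 and 11 in shNT. The shared share was 37.5% in shRBBP4 and 36.0% in shNT with reciprocal overlap of at least 50%, and 100% in shRBBP4 and 96.0% in shNT within 1 kb. With 10-kb windows as the background, 73.2% had more covered length in shRBBP4. The ratio of covered length ran from 1.20 in lists of equal length to 1.90 in the higher-scoring 50%, and that of region numbers from 0.680 to 1.5 in the same settings. CREBBP had no ratio in lists of equal length or in the higher-scoring 50%, because no shRBBP4 region was left. Of the 28 log2 ratios of single genes that could be computed, 26 kept their sign. The exceptions were SUZ12 at -0.05 in lists of equal length and EZH2 at -0.10 in the higher-scoring 50%. Limiting the lists by score left SUZ12 with 340 bp in shRBBP4 and 353 bp in shNT. It left EZH2 with 516 bp in shRBBP4 and 552 bp in shNT. In the higher-scoring 50%, the log2 ratio of CHAF1A was 3.59, against 0.68 in the full lists, because 171 bp were left in shNT.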

Other observations

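The surroundings of the genes, 500 kb on either side without the 10 kb around the start, are given by their number of regions in each library and the ratio of shRBBP4 to shNT. Around SUZ12 shRBBP4 had 39 regions and shNT had 16, which gives 2.44 (exact 95% interval 1.33 to 4.67, counting error only). Around CHAF1A shRBBP4 had 45 and shNT had 19, which gives 2.37 (1.36 to 4.29). The ratio of the whole lists, 1.46, and those of chromosome 17, 1.45, and chromosome 19, 1.62, lay inside these intervals, so neither is set apart from the background. Around CREBBP, which had less covered length in shRBBP4 near its start, shRBBP4 had 21 and shNT had 32, which gives 0.656 (0.360 to 1.17), with 6180 bp covered in shRBBP4 and 7674 bp in shNT. The ratio of the whole lists lay above this interval, while that of chromosome 16, 1.17, lay inside it. The shRBBP4 and shNT numbers were 42 and 35 around EZH2, 31 and 18 around EED, 65 and 46 around EP300, and 73 and 55 around KAT2A. KAT2B lay in a sparse stretch, with 6 regions in shRBBP4 and 7 in shNT. KAT2A, with no region at its start, thus had the most regions around it in both libraries. The intervals treat neighbouring regions as independent, so they are too narrow.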
